A study of Arabidopsis thaliana with 6 samples.

Results

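PRPL11, PRPS20, EMB3105 and AT1G29070 are nuclear genes of Arabidopsis thaliana whose products are proteins of the plastid ribosome. They were taken by symbol as 4 of the 32921 named rows of the count tables, and each symbol stood on 1 row. The genes were picked one by one with the comparison of traffic noise and control already known, so their values in that comparison are a description and carry no test. The TAIR10.1 annotation describes PRPL11 as plastid ribosomal protein L11, PRPS20 as chloroplast protein S20 of the small subunit, EMB3105 as a protein of the L18p/L5e family and AT1G29070 as ribosomal protein L34.

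RNA was taken from whole wild-type seedlings, in 3 libraries after traffic noise and 3 after control white noise. In the traffic noise group, a recording of city traffic averaging 75 dB was played for 48 h in a sound-proof facility. In the control white noise group, white noise averaging 10 dB was played for the same 48 h. Seeds of both groups lay on sealed agar plates wrapped in foil to keep out light, and the labels do not give the seedlings' age. Type and loudness of the sound differed together between the groups and cannot be told apart. The labels do not say whether replicates came from separate plates or seed lots, so every p-value reflects only the spread among these libraries, which may be technical.

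Plastids keep their own ribosomes, built like those of bacteria from a large (50S) and a small (30S) subunit. Part of the ribosomal proteins is encoded in the plastid genome. The rest, including the 4 described here, is encoded in the nucleus, made in the cytosol and imported. Plastid ribosomes make core subunits of the photosystems and the large subunit of Rubisco, and loss of many of their proteins stops embryo growth or leaves seedlings pale.

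The libraries held between 17540009 and 20780363 counts on named rows. Control replicate 3 had counts on 16128 rows, where the remaining 5 libraries had 20026 to 20287. It was also least like the rest, with an average Pearson's r of 0.742 across tested rows, against 0.810 to 0.829 (rows are not independent replicates). The leaf markers and 4 of the 7 root markers had counts in every library. Of the other root markers, SHV2 was at 0 throughout, RHD6 was at 0 in 5 libraries, and WOX5 was at 0 in traffic noise replicate 3 and control replicate 1. The 7 root markers summed to 8186 to 9001 CPM (counts scaled to library size with TMM factors) in traffic noise and to 9095 to 9925 CPM in control. PYK10 made up most of this sum, while SCR, SHR and CASP1 overlapped between the groups at log2 fold changes of 0.32, 0.10 and 0.05. The 6 leaf photosynthesis markers summed to 3864 to 4039 CPM in traffic noise and to 2838 to 5860 CPM in control. This sum joins unlike genes. CAB1 was higher in traffic noise without overlap (log2 fold change 0.93 ± 0.29, edgeR adjusted p = 0.493), while RBCS1A stood at -0.52 ± 0.25. The groups overlapped for 5 of the 6, and 4 of the 6 had negative fold changes. Of all tested rows 8.99% were higher without overlap. The 9 seed reserve genes summed to 1.97 to 3.60 CPM in traffic noise and to 3.86 to 10.9 CPM in control, SESA2 and SESA4 were at 0 in all libraries, and OLEO1, the 1 seed gene with enough counts to be tested, overlapped between the groups (0.96 ± 1.87). The root and seed reserve sums did not overlap, and their part in the results was not tested.

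The 4 genes lie on chromosomes 1 and 3, all on the plus strand, and RefSeq gives each 1 transcript (coordinates and sequences below are from TAIR10.1; the submitters' processing notes name TAIR10). PRPL11 (AT1G32990, chr1:11955656-11957402) has 4 exons and encodes 222 residues. PRPS20 (AT3G15190, chr3:5116021-5117615) has 3 exons and 202 residues. EMB3105 (AT1G48350, chr1:17867102-17868432) has 3 exons and 170 residues. AT1G29070 (chr1:10149791-10151407) has 2 exons and 157 residues. No other place in the genome matched 50 or more of the last 300 transcript bases of any of them at 90% identity, so near-identical copies of their 3′ ends were not found.

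Because the 4 genes varied together across the libraries, the sequence before the starts of 3 of them is shown, with every match to the motifs searched in capitals. The motifs were the site II element (TGGGCC and TGGGCT), telo box (AAACCCTA), G-box (CACGTG), I-box (GATAAG), GT-1 (GGTTAA), heat shock element (GAANNTTC), evening element (AAAATATCT) and TATA box (TATAAA), on both strands. For PRPL11 all 250 bases are given, chr1:11955406-11955655 on the plus strand. Transcripts of an upstream neighbour cover most of this stretch for PRPS20 and AT1G29070, so only 30 bases with matches are given, chr3:5115873-5115902 and chr1:10149706-10149735, also on the plus strand.
PRPL11: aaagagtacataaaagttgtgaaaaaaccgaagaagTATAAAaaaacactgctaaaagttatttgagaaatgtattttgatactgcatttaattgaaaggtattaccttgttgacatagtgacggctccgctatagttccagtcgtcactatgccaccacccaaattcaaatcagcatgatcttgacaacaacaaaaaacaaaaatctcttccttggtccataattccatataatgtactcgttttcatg
PRPS20: GATAAGtaaactttagttctttcTATAAAc
AT1G29070: cagtatTGGGCTTTTATAgtcttaTGGGCT

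The TATA box letters were the motif that all 4 stretches of 250 bases held, and 47.4% of 27443 promoters of protein-coding genes held them too. AT1G29070 had the site II letters TGGGCT at 79 and at 61 bases before its start and an evening element at 146 bases. PRPS20 had an I-box at 148 bases and a GT-1 match at 183 bases before its start. No telo box, G-box, heat shock element or TGGGCC was in the window of any of the 4. Of the 37 other nuclear genes for plastid ribosomal proteins, 14 (37.8%) held either form of site II, against 19.2% of all protein-coding genes. Among tested protein-coding genes the share was 22.7%. For the telo box the shares were 13.5% of those 37 genes, 4.49% of all and 3.41% of tested genes. The I-box was in 24.3% of the 37 and 12.3% of all, and GT-1 in 16.2% and 14.6%. The G-box was in 8.11% and 6.49%, and the heat shock element in 8.11% and 9.55%. The evening element was in 2.70% and 2.36%, and the TATA box in 43.2% and 47.4%. These are matches of letters, listed as a description.

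PRPL11 encodes a protein which in bacteria sits at the base of the ribosomal stalk, where elongation factors bind, and Arabidopsis mutants without it are pale green. Its level was 34.5, 30.4 and 23.9 CPM in traffic noise replicates 1 to 3, against 82.6, 44.1 and 76.8 CPM in control replicates 1 to 3. The groups did not overlap, although control replicate 2 lay closer to the traffic noise libraries than to the other controls. The mean was 29.6 ± 5.32 CPM in traffic noise and 67.9 ± 20.8 CPM in control (SD, n = 3 each). Traffic noise was at 43.6% of the control mean, with a fitted log2 fold change of -1.20 ± 0.31 (SE).

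PRPS20 encodes the small-subunit protein S20, which in bacteria binds 16S ribosomal RNA early in assembly. Its level was 124.2, 116.3 and 102.8 CPM in traffic noise, against 242.9, 212.4 and 286.4 CPM in control. The groups stood furthest apart here as a ratio: the lowest control library was 1.71 times the highest traffic noise library, against 1.13 to 1.28 times for the other 3 genes. The spread was also the smallest of the 4, at a coefficient of variation of 9.42% in traffic noise and 15.0% in control. The log2 fold change was -1.11 ± 0.22 (SE), which puts traffic noise at 46.3% of control.

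EMB3105 is named for mutants that arrest as embryos, and L18 of bacteria holds 5S ribosomal RNA in the large subunit. Its level was 96.6, 80.1 and 53.1 CPM in traffic noise, against 158.0, 118.0 and 216.2 CPM in control. No traffic noise library reached any control library. The log2 fold change was -1.10 ± 0.30 (SE), with traffic noise at 46.7% of control. The gene AT1G48355 lies on the opposite strand across the whole last 300 bases of EMB3105, and its counts came to 97.4% of those of EMB3105. Its raw counts were 1922, 1611 and 980 in traffic noise and 3135, 2036 and 3747 in control, beside 1960, 1626 and 1086 in traffic noise and 3216, 2159 and 3749 in control for EMB3105. The sources used here do not state whether counting used strand, and which of the genes these reads came from cannot be told apart. Elsewhere in these counts, the lncRNA AT4G20362 and the gene RABE1b, on opposite strands, had identical counts in every library. At that place, where the overlap takes in 33 of the last 300 bases of RABE1b, the same reads appear to have been counted for both. Opposite-strand genes that cover the whole last 300 bases of other listed genes had unlike shares. RIC1 had 99.6% of the counts of PRPL28 and QWRF4 had 60.3% of those of AT2G24060. CXE16 had 5.39% of those of EMB3137 and AT3G27831 had 0.002% of those of RPL12-A. What sets these shares was not tested.

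AT1G29070 encodes L34, one of the small basic proteins of the large subunit. Its level was 122.5, 132.2 and 91.8 CPM in traffic noise, against 220.8, 149.1 and 362.6 CPM in control. As a ratio the groups were closest here, with control replicate 2 at 1.13 times traffic noise replicate 2, and the controls spread most, at a coefficient of variation of 44.5%. The log2 fold change was -1.08 ± 0.32 (SE). It was -0.68 without control replicate 3, the library with the most AT1G29070 and the fewest rows with counts.

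**Figure D1:**
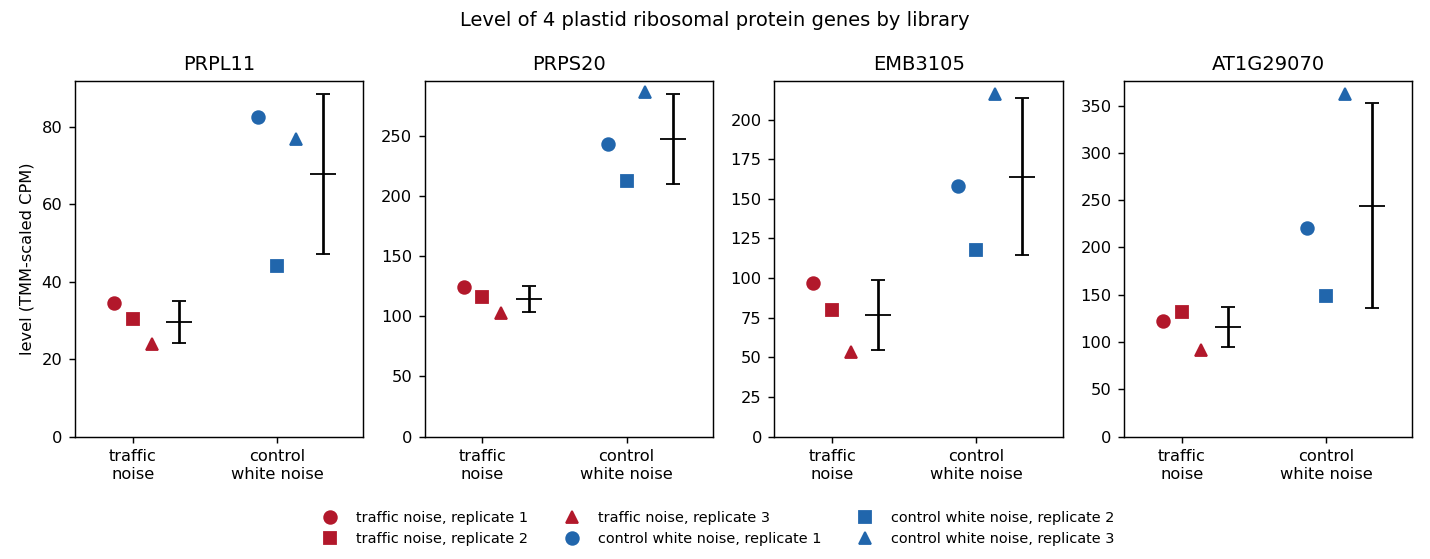
Level of PRPL11, PRPS20, EMB3105 and AT1G29070 (y axis, TMM-scaled CPM) in each traffic noise and control white noise library. Symbols are single libraries, and bars are the mean ± SD over 3. In all 4 panels every traffic noise library lies below every control library, and the ratio of the lowest control to the highest traffic noise library is largest in PRPS20 and smallest in AT1G29070.

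A gene on the opposite strand also overlaps the 3′ end of PRPS20, over a shorter stretch than in EMB3105. AT3G15200 covers 127 bases there and had 54.3% of the counts of PRPS20. Its raw counts were 963, 1034 and 1136 in traffic noise and 2837, 1860 and 3460 in control, also lower in traffic noise. How many reads it shares with PRPS20 was not measured. PRPL11 and AT1G29070 overlap no annotated gene. Their log2 fold changes, -1.20 and -1.08, were the most and the least negative of the 4. The part of such overlaps in the measured levels was not tested.

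The 4 fold changes lay within a narrow band, from -1.20 to -1.08, and between 6.12% and 7.44% of all tested rows had a more negative one. By edgeR's quasi-likelihood test, adjusted after Benjamini-Hochberg over 19112 rows, 0 of the 4 genes passed at 0.05, where 0.0105% of rows passed as lower. At an unadjusted p under 0.05 all 4 were lower, beside 3.98% of rows lower and 3.48% higher. DESeq2 called all 4 lower, with 2.98% of the rows it could adjust called lower and 1.92% higher. On simulated counts with the means and spreads of all tested rows, DESeq2 called slightly more unchanged than changed rows. The changed rows were a small, preset share of all tested rows, drawn at random and changed by set folds. The mix of calls depends on that share, and the mix was not worked out at the counts of these 4 genes. Limma-voom called 0 of the 4, with 0.0419% of rows lower and 0.0209% higher. The groups did not overlap in 4 of 4, against 7.39% of tested rows lower and 8.99% higher without overlap. Among rows averaging 500 counts or more, where the 4 genes lie, 13.4% were lower without overlap and 51.1% had a negative fold change. As the genes were picked with this comparison known, nothing further is read from these counts.

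The 4 genes had much the same libraries at their extremes. Traffic noise replicate 3 was the lowest library for each of them. Control replicate 2 was the lowest control for each, and control replicate 3 the highest for 3, with PRPL11 highest in control replicate 1. Pearson's r of log2 CPM between pairs of them ran from 0.907 to 0.958 over 6 libraries, which the gap between the groups raises. After removing each group's mean it ran from 0.780 to 0.975. All pairs share the same libraries and scaling.

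**Figure D2:**
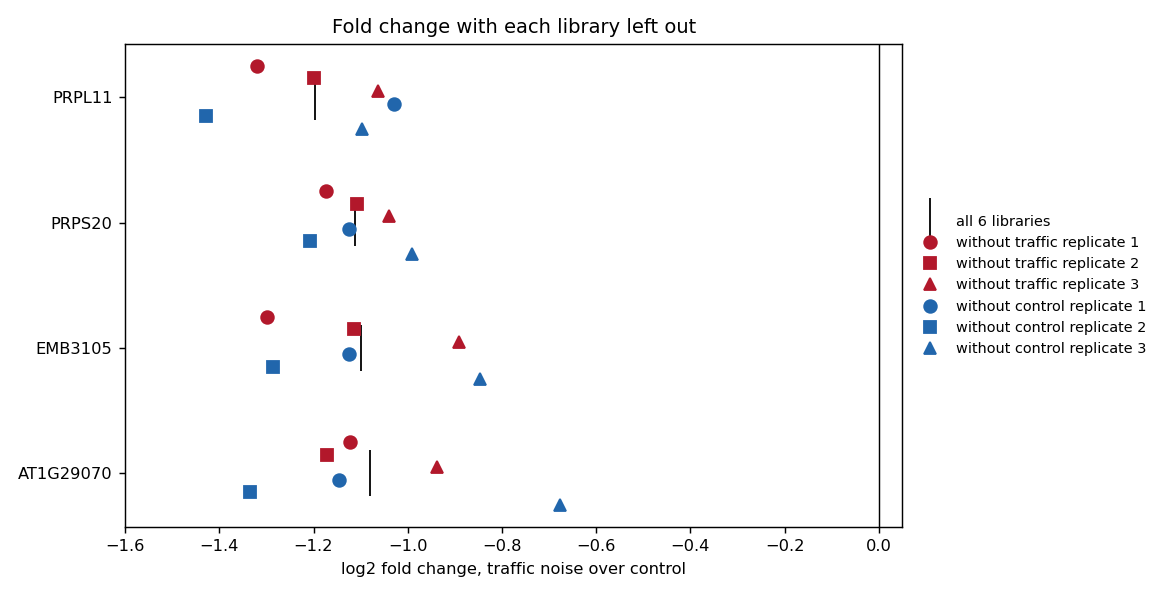
Log2 fold change of the 4 genes, traffic noise over control (x axis), fitted with all 6 libraries (bar) and with each library left out (symbols). All values stay below 0. Leaving out control replicate 3 brings AT1G29070 to -0.68 and EMB3105 to -0.85, and leaving out control replicate 2 brings PRPL11 to -1.43.

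The other nuclear genes for plastid ribosomal proteins mostly had lower means after traffic noise as well, although none passed the main test. The list held 37 besides the 4 described, 24 of the large and 13 of the small subunit, and was drawn up with the lower level of ribosomal protein transcripts in these data known. RPL12-B had no count in any library, where a floor of 3 counts is 0.144 to 0.171 CPM, and the other 36 were tested. By edgeR 0 of 36 passed in either direction, where 0.0105% of all rows passed as lower and 0% as higher. At an unadjusted p under 0.05, 24 were lower and 0 higher, beside 3.98% and 3.48% of all rows. DESeq2 called 6 of 35 lower and 0 higher, beside 2.98% and 1.92%, and limma-voom called 0. Log2 fold changes were negative in 35 of 36, with a median of -0.72, while 47.5% of all tested rows were negative with a median of 0.05. In 20 of 36 (55.6%) the traffic noise libraries all lay below the controls, beside 7.39% of all rows and 13.4% of rows averaging 500 counts or more, where 35 of the 36 lie. The median was -0.50 without control replicate 3.

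In the large subunit, all 23 tested genes had negative fold changes (median -0.71). The most negative were the L19 genes AT4G17560 and AT5G47190, whose protein in bacteria lies where the subunits meet. AT4G17560 was at 31.4, 21.8 and 21.9 CPM in traffic noise and at 42.0, 38.4 and 119 CPM in control (log2 fold change -1.41 ± 0.43, edgeR adjusted p = 0.493). AT5G47190 was at 47.8, 31.0 and 19.7 CPM in traffic noise and at 75.6, 45.3 and 134.9 CPM in control (-1.38 ± 0.43, edgeR adjusted p = 0.493). For this pair control replicate 3 was the highest library, and the AT5G47190 groups overlapped. PSRP6, a protein found in plastid and not in bacterial ribosomes, was at 388.6, 336.3 and 256.5 CPM in traffic noise and at 584.3, 423.6 and 1064 CPM in control, with a log2 fold change of -1.08 ± 0.33 that is close to those of EMB3105 and AT1G29070.

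At the other end of the large subunit stood emb2184, the gene for L31, with 209.1, 186.8 and 127.4 CPM in traffic noise and 195.4, 197.6 and 206.7 CPM in control (log2 fold change -0.20 ± 0.23, edgeR adjusted p = 0.955). The genes for L13 (emb1473) and L29 (AT5G65220) had log2 fold changes of -0.35 ± 0.30 and -0.46 ± 0.32, and their groups overlapped. Stalk proteins that assemble beside L11 come from RPL12-A and RPL12-C, at log2 fold changes of -0.87 ± 0.28 and -0.64 ± 0.24, against -1.20 for PRPL11 itself. Whether these differ from PRPL11 was not tested.

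In the small subunit, 12 of 13 tested genes had negative fold changes (median -0.74). The S13 gene EMB3137 was at 130.1, 109.7 and 90.7 CPM in traffic noise and 226.5, 159.0 and 354.0 CPM in control (log2 fold change -1.16 ± 0.30, edgeR adjusted p = 0.468). PRPS20, at -1.11 ± 0.22, had a smaller standard error than EMB3137.

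Genes for the same small-subunit protein had unlike values. PSRP3 /1 and PSRP3 /2 encode forms of a plastid-specific protein. The PSRP3 /1 gene was at 23.8, 37.4 and 29.2 CPM in traffic noise, against 51.3, 37.9 and 100.9 CPM in control (log2 fold change -1.07 ± 0.38). PSRP3 /2 was at 12.9, 15.4 and 9.83 CPM in traffic noise, against 18.3, 11.2 and 12.5 CPM in control (-0.14 ± 0.42), and its groups overlapped. The difference between the pair was not tested. Opposite-strand genes overlap the 3′ ends of both, with 70.5% of the counts of PSRP3 /1 and, for GNA1, 86.7% of those of PSRP3 /2, so reads cannot be assigned with certainty. AT5G24490, annotated as a 30S ribosomal protein, was the 1 gene of the 36 with a positive value, 0.11 ± 0.35, and AT5G24500 on its opposite strand had 81.5% of its counts. RPS9, for S9, stood at -0.05 ± 0.25.

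**Figure D3:**
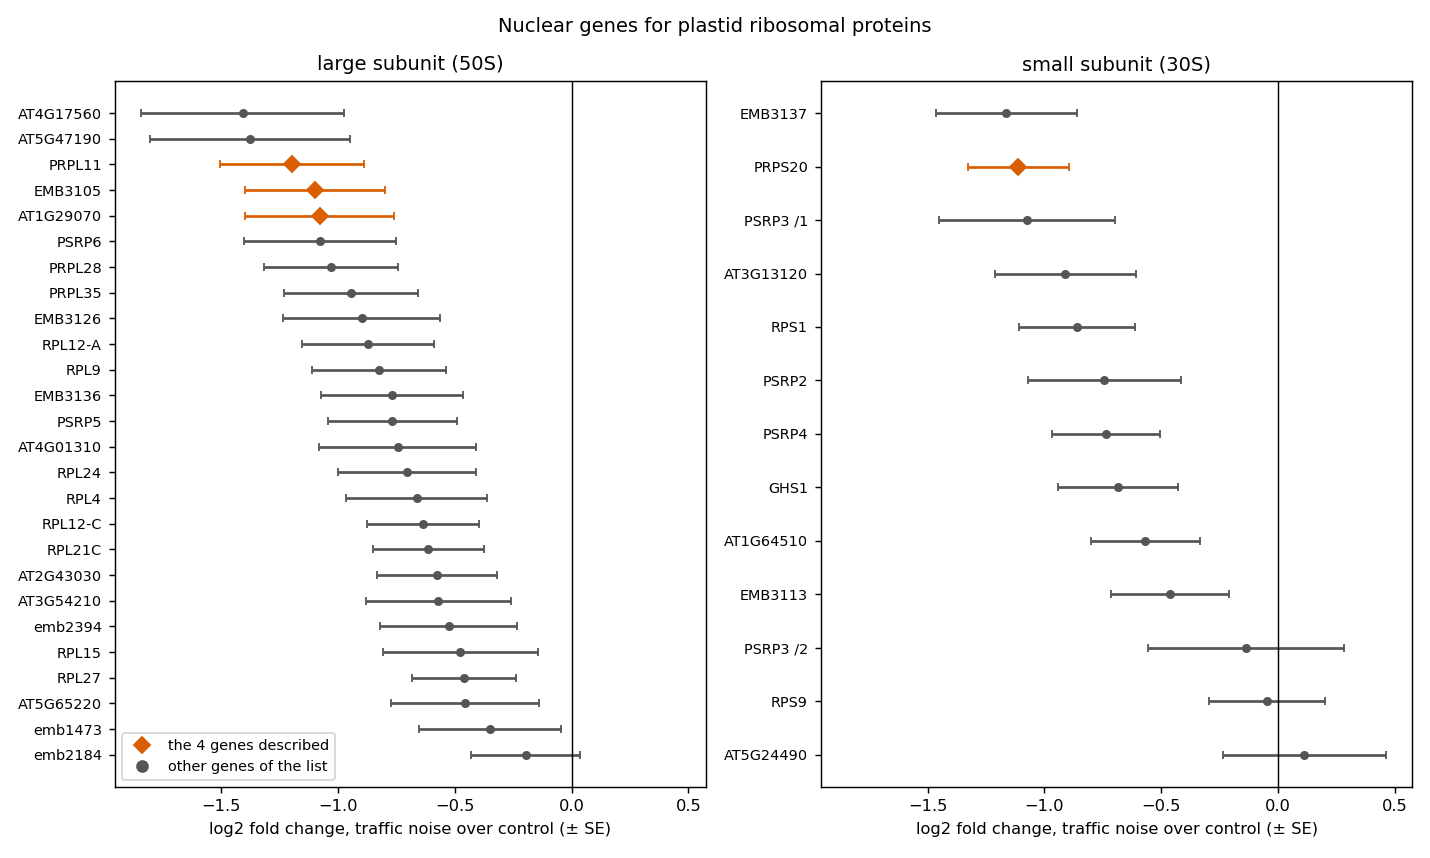
Log2 fold change, traffic noise over control (x axis, ± SE), of 39 of the 40 tested nuclear genes for plastid ribosomal proteins, large subunit left and small subunit right. PRPL11, EMB3105, AT1G29070 and PRPS20 (diamonds) lie in the more negative part of each panel, and all points drawn but that of AT5G24490 lie below 0.

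Summed over the genes, transcripts for plastid ribosomal proteins were at a lower level in every traffic noise library than in any control. The 4 genes together were at 377.8, 359.0 and 271.8 CPM in traffic noise, against 704.3, 523.7 and 942.1 CPM in control. The other 36 were at 4610, 4007 and 3227 CPM in traffic noise, against 5878, 4857 and 8877 CPM in control. The 4 genes accounted for 7.58% to 8.22% of the plastid ribosomal protein sum in traffic noise and for 9.59% to 10.7% in control, a gap that picking them with this comparison known favours. In bulk tissue, fewer cells with active plastids and less RNA per cell cannot be told apart.

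A further 275 tested nuclear genes described as ribosomal protein, outside the plastid list, were measured in the same fit. Of these 212 (77.1%) had a negative log2 fold change, beside 47.5% of all rows, and the median was -0.42. The groups did not overlap for 92 that were lower and 8 that were higher, beside 7.39% and 8.99% of all rows. By edgeR 0 passed in either direction. At an unadjusted p under 0.05, 82 were lower and 1 higher, beside 3.98% and 3.48%. DESeq2 called 30 of 160 lower and 0 higher, beside 2.98% and 1.92%, and limma-voom called 0. They summed to 31853, 27501 and 23349 CPM in traffic noise and to 43637, 34808 and 38291 CPM in control. The 275 were found by the wording of their descriptions, which need not take in every ribosomal protein gene or only such genes. Of the counts of these 275 and the listed nuclear plastid genes together, the plastid genes made up 13.5%, 13.7% and 13.0% in traffic noise. In control they made up 13.1%, 13.4% and 20.4%. Apart from control replicate 3, the plastid share was thus nearly the same in both groups.

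**Figure D4:**
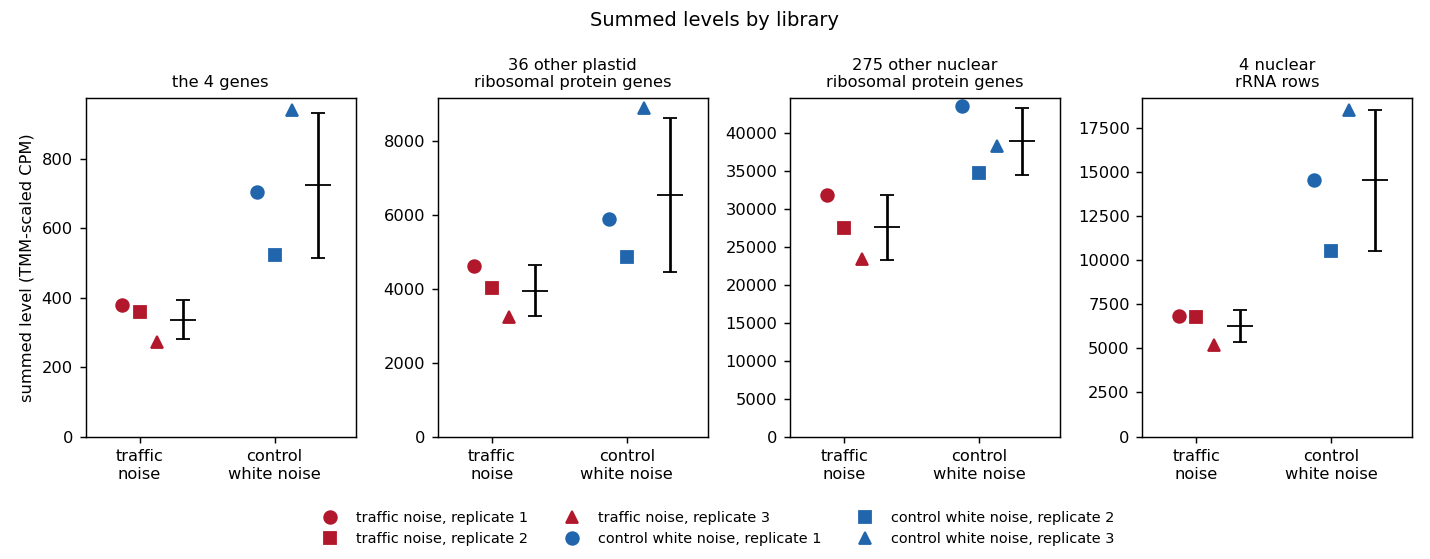
Summed level (y axis, TMM-scaled CPM) of the 4 genes, the 36 other plastid ribosomal protein genes, 275 other nuclear genes described as ribosomal protein and 4 nuclear rRNA rows, by library, with mean ± SD. In each panel all traffic noise libraries lie below all controls. Control replicate 3 is the highest library in each panel except that of the 275 genes.

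Factors that assemble and serve the plastid ribosome were measured for 17 genes, all tested. By edgeR 0 passed in either direction, and at an unadjusted p under 0.05, 4 were lower and 0 higher, beside 3.98% and 3.48% of all rows. DESeq2 called 2 of 7 lower, emb2726 (elongation factor Ts) and RHON1, beside 2.98% of all rows, and limma-voom called 0. Fold changes were negative in 15 of 17, with a median of -0.74. RHON1, an RNA-binding protein of plastid RNA processing, was at 47.5, 53.7 and 50.05 CPM in traffic noise and at 92.9, 61.7 and 224.8 CPM in control (log2 fold change -1.33 ± 0.41, edgeR adjusted p = 0.493). The ribosome-binding factor gene AT4G34730 and OVA6, an organellar prolyl-tRNA synthetase, had log2 fold changes of -1.06 ± 0.54 and -1.02 ± 0.43. At the other end RABE1b, the elongation factor Tu of plastids, was at 549.0, 587.0 and 432.4 CPM in traffic noise and at 551.5, 545.9 and 389.9 CPM in control (0.08 ± 0.22). The lncRNA AT4G20362 on its opposite strand had the same count as RABE1b in every library (100%), so the same reads appear to have been counted for both. HCF109, for a release factor, stood at -0.09 ± 0.45 and the GTPase gene emb2738 at -0.34 ± 0.63.

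Ribosomal proteins encoded in the plastid itself had mixed values. Of 21 such genes 12 had a row of their own, and the rest share a symbol with another row or could not be tied to 1 locus. By edgeR 0 of 12 passed, 9 had negative fold changes and the median was -0.24. At an unadjusted p under 0.05, 1 was lower and 1 higher, beside 3.98% and 3.48% of all rows. DESeq2 called 0 of 6, beside 2.98% lower and 1.92% higher, and limma-voom called 0. The rpl32 row was at 742.5, 482.3 and 494.2 CPM in traffic noise, against 139.0, 339.6 and 22.6 CPM in control (log2 fold change 1.78 ± 0.68, edgeR adjusted p = 0.578). The rpl14 row was at 5.33, 1.53 and 1.76 CPM in traffic noise, against 7.17, 10.11 and 12.6 CPM in control (-1.79 ± 0.74, edgeR adjusted p = 0.625). For both rows the groups did not overlap, in opposite directions. That is 1 of 12 lower and 1 of 12 higher, near the 7.39% and 8.99% of all tested rows. Between these lay rps18 at 0.66 ± 0.44, rps2 at 0.20 ± 0.32 and rps15 at -0.63 ± 0.43. Libraries primed on poly(A) tails catch plastid transcripts unevenly, and the part of capture in these counts was not tested. No test compared them with the nuclear genes.

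Among 12688 other rows averaging 100 counts or more, the 5 whose levels ran most nearly with the mean profile of the 4 genes included 2 rows annotated as nuclear ribosomal RNA. The best was AT4G21105, described as a cytochrome c oxidase or electron carrier, with Pearson's r = 0.998 over 6 libraries. The rRNA rows AT2G01010 and AT3G41768 followed with r of 0.997 each, then emb2171, a ribosomal protein of the L14p/L23e family, with 0.996, and AT3G62530, an ARM repeat protein, with 0.995. Of the plastid ribosomal protein genes PRPL35 came nearest, at r = 0.991 and place 14. With 6 libraries and 12688 rows searched, values this high are a description only, and the gap between the groups carries much of them.

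AT2G01010 was at 3357, 3337 and 2546 CPM in traffic noise, against 7162, 5150 and 9172 CPM in control, a log2 fold change of -1.22 ± 0.24 that is close to that of PRPL11. AT3G41768 had nearly the same level in each library, so the pair may not be separate measurements. The 4 nuclear rRNA rows together took 0.691%, 0.668% and 0.535% of counts in traffic noise, against 1.42%, 1.04% and 1.83% in control. Ribosomal RNA has no regular poly(A) tail, and the part of capture or RNA quality was not tested. The plastid rRNA rows took 7.21%, 7.88% and 8.31% of counts in traffic noise and 10.099%, 6.96% and 6.13% in control, and the groups overlapped.

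**Figure D5:**
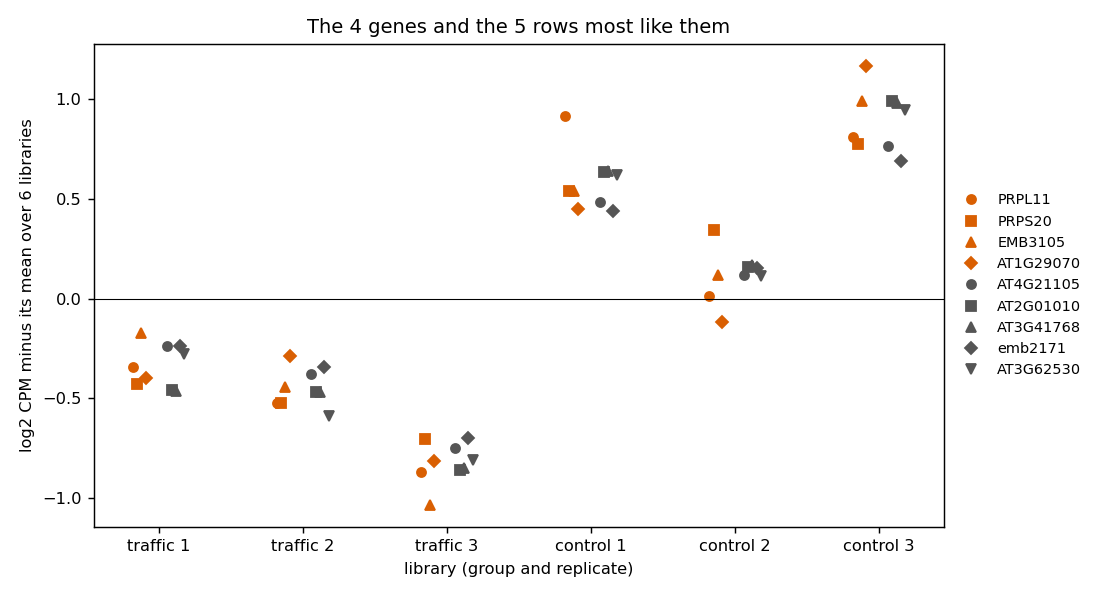
Log2 CPM minus its mean over 6 libraries (y axis) by library (x axis) for the 4 genes (orange) and the 5 rows most like them (grey). All 9 lie below their mean in the traffic noise libraries and, apart from AT1G29070 in control replicate 2, above it in the controls.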

How the data were processed

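Members and lists were chosen with earlier results of these data known. QuantSeq libraries read the 3′ ends of polyadenylated RNA, per the labels' protocols, so counts do not scale with transcript length. The authors deposited raw counts per gene symbol and library. Bowtie2, bedtools and TAIR10 are named in the submitters' processing notes without versions or roles. The sources used here do not state strand use or how reads with several matches were counted. The 218 rows without a name (0.0431% to 0.0886% of counts) were left out. Of 32921 named rows 32506 were tied to 1 locus of TAIR10.1. edgeR 4.0.16 (R 4.3.3) tested the 19112 rows kept by filterByExpr, with TMM factors, robust quasi-likelihood F tests and Benjamini-Hochberg adjustment at 0.05. Standard errors are the fold change over the root of F. DESeq2 1.42.0 gave an adjusted p for 4365 rows, and limma 3.58.1 was run as voom. Likeness used log2 CPM with a prior count of 2. Count floors cover counting error only. On simulated counts a small, preset share of rows was changed by known folds. There edgeR and limma-voom found a minority of the changed rows with few false calls. DESeq2 called slightly more unchanged than changed rows, a mix that depends on that share. Named genes were the 4 members, the 3 lowest and 3 highest fold changes of each list among genes with a mean of at least 100 counts, and the 5 rows most like the members. PRPL35, RPL12-A, RPL12-C and emb2726 were added after their values were seen. Some items under these rules are not reported here.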

Additional observations from a re-analysis of the deposited data

How the results depend on the processing

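The fold changes of the 4 genes were negative in all 14 alternatives, from -1.43 to -1.03 for PRPL11, -1.21 to -0.99 for PRPS20, -1.30 to -0.85 for EMB3105 and -1.33 to -0.68 for AT1G29070, and each of these ranges comes from leaving out 1 library. The median of the 36 other plastid ribosomal protein genes lay between -0.87 and -0.50, with 33 to 36 negative. By edgeR and limma-voom 0 of the 36 passed in any alternative, and DESeq2 called 6 lower. Over all rows edgeR called 2 lower and 0 higher. It called 0 lower over nuclear rows only, 5 lower and 1 higher without a low-count filter, and 4 lower among rows with a mean of at least 500 counts. DESeq2 called 130 lower and 84 higher, and limma-voom 8 and 4. Leaving out 1 library gave 0 to 13 lower and 0 to 18 higher, the most without control replicate 2. Libraries with the same replicate number did not deviate together (Pearson's r = -0.01, 0.01 and 0.02 across rows). Such values cannot settle whether they shared a plate or seed lot, which the labels do not give. The fit with the replicate block called 0 lower and 0 higher. The median of all tested rows was 0.05, 0.16 by limma-voom and 0.15 with the block. The cause of these differences was not tested.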
